A study of Rattus norvegicus with 32 samples.

Results

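The 10 genes of the α- and β-tubulin family, Tuba1a, Tuba1b, Tuba1c, Tuba4a, Tuba8, Tubb2a, Tubb2b, Tubb3, Tubb4b and Tubb6, were followed in the left ventricle of septic rats. They were chosen by name, as every non-control probe of the array that its annotation assigned to one of these symbols, which gave 15 of 45598 probes and 10 of 34912 gene names. All 10 genes, and all 15 probes, passed the filter on dim probes in each sex. Wistar rats of both sexes underwent sham surgery or cecal ligation and puncture (CLP), a surgical model of abdominal sepsis, and part of the CLP rats then received an infusion of landiolol, which blocks β1-adrenergic receptors and is cleared rapidly. Per sex there were 5 sham, 5 CLP and 6 CLP plus landiolol rats without any engineered allele, and every left ventricle was collected at 20 h and hybridised to a 1-colour Agilent array of its own. All rats had buprenorphine before surgery, and infusion volumes were matched, with saline in place of landiolol after CLP alone. The hearts had been imaged in vivo and perfused ex vivo before they were frozen, in sham rats as well, and only RNA of high integrity was used. The question was whether the balance of tubulin isotypes shifted after CLP and whether it shifted again under landiolol.

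Microtubules are hollow polymers of α/β-tubulin heterodimers, and the genes of each class encode closely related isotypes that differ mainly in their acidic C-terminal tails. Most α-tubulins end in a tyrosine that the Vash1/2–Svbp carboxypeptidases remove and that the ligase Ttl puts back, and this cycle alters how motors and other proteins bind the lattice. In heart muscle cells, microtubules carry transport and resist contraction. Tuba8 is an α-tubulin of heart, skeletal muscle and testis, Tuba4a is a widely expressed α-tubulin, Tuba1a, Tuba1b and Tuba1c form a cluster of near-identical α-tubulins, Tubb4b is a ubiquitous β-tubulin, and Tubb3 is best known as the β-tubulin of neurons.

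The probe sequences show which part of each transcript was measured. They are given 5′ to 3′ as the arrays carry them, with positions in build rn4 from the array annotation. The first pair are the probes of the α-tubulins that changed most, and both run to the stop codon. The third is the coding probe of Tuba1c, a gene whose other probes gave a different result. Capitals mark the last codon before the stop and the stop codon itself.
Tuba8, chr4_random:1618566-1618625, minus strand: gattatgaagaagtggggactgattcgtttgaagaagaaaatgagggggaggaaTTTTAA
Tuba4a, chr9:74496576-74496635, minus strand: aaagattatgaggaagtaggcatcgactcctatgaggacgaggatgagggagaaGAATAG
Tuba1c, chr7:137817177-137817235, plus strand: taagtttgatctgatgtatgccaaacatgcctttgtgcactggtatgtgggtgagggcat
The codon before the stop is TTT in Tuba8 and GAA in Tuba4a, and neither is a codon for tyrosine (TAT or TAC). The 54 bases of the Tuba8 probe ahead of its capitals were aligned so that their last codon faced the GAA of Tuba4a. They shared 40 of 54 bases with Tuba4a, so each gene was read over its own version of the C-terminal tail. Probes of the Tuba1 cluster may read more than 1 of its near-identical genes, and their values are uncertain in that respect.

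The 32 arrays carried 62976 spots each, no spot was saturated, and arrays of a sex correlated at 0.936 to 0.989 in males and at 0.930 to 0.986 in females. Sex went with the slide, so levels were not compared between the sexes. On the female slides all sham arrays lay in row 1 and all CLP plus landiolol arrays in row 2. The scanner output of the first female slide named another protocol than that of the rest. The 6 cardiomyocyte markers were well above background on all 32 arrays, and none of them passed the false discovery rate (FDR) in any comparison. The values below are normalised intensities on the log2 scale, where a difference of 1 is a doubling, and "called" means that a gene passed the FDR of its comparison in limma, over all probes kept. A probe's level is not compared with that of another probe, since each binds its target with its own strength. In whole tissue, fewer cells of a type and less RNA per cell cannot be told apart.

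Tuba8 and Tuba4a were lower after CLP in both sexes, and Tuba1a and Tubb4b passed the test in males. In males, 4 of the 10 genes were called at the FDR of 1%, all lower after CLP, beside 7.81% of all probes called in either direction. The male count was 2 without CLP replicate 3, 4 or 5 or sham replicate 3. In females, 2 of 10 were called, both lower, beside 3.63% of all probes. The median change of the 10 genes was −0.37 in males, where that of all probes was 0.0091, and −0.34 in females, where that of all probes was −0.015.

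For Tuba8, the male sham arrays read 14.77, 14.40, 14.55, 14.32 and 14.80, and the male CLP arrays read 13.10, 12.66, 12.75, 12.37 and 12.44. The female sham arrays read 14.77, 14.04, 14.72, 14.74 and 14.74, and the female CLP arrays read 12.96, 12.68, 12.74, 13.12 and 13.04. In each sex every CLP array lay below every sham array, also with the low sham array of the females. Tuba8 fell by 1.90 ± 0.16 (log2 change ± SE) in males, a 3.74-fold decrease with an adjusted p of 3.80e-06. In females it fell by 1.69 ± 0.20, or 3.24-fold, with an adjusted p of 0.000114. Within the separate slides the male values were −1.75 and −2.15 and the female values −1.85 and −1.47.

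For Tuba4a, the male sham arrays read 16.16, 15.89, 16.11, 15.91 and 15.94, and the male CLP arrays read 14.03, 14.44, 14.02, 13.61 and 14.47. The female sham arrays read 15.87, 15.45, 15.99, 16.22 and 15.84, and the female CLP arrays read 13.95, 13.36, 13.60, 13.53 and 14.36. The groups lay more than a log2 unit apart in both sexes. Tuba4a fell by 1.89 ± 0.15 in males, or 3.70-fold (adjusted p = 2.77e-06), and by 2.12 ± 0.27 in females, or 4.34-fold (adjusted p = 0.000203). Its second, much dimmer probe fell by 1.87 ± 0.41 in males (adjusted p = 0.00590) and by 2.10 ± 0.27 in females (adjusted p = 0.000256), and both Tuba4a probes varied together over the 16 arrays of a sex (Pearson's r of 0.83 and 0.85, a description without a test). The male call of the second probe held in 11 of the 16 fits without 1 array and was lost without sham replicate 2, 3 or 4 or CLP replicate 1 or 4, when the change was −1.76, −1.76, −1.72, −1.60 and −1.81 in that order.

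Tuba1a, the α-tubulin of growing neurons that is also present in heart, read 14.23, 14.02, 14.51, 14.44 and 14.08 in male sham rats and 13.90, 13.38, 13.55, 13.38 and 12.94 in male CLP rats. The male groups did not overlap, and the gene fell by 0.83 ± 0.18 (adjusted p = 0.00515). Tubb4b read 15.75, 15.74, 15.88, 15.69 and 15.87 in male sham rats and 15.32, 15.48, 15.28, 15.24 and 15.18 in male CLP rats. These groups were also apart, by a small margin, and Tubb4b fell by 0.48 ± 0.11 (adjusted p = 0.00560). Neither passed in females, where Tuba1a read −0.48 ± 0.22 (adjusted p = 0.210) and Tubb4b −0.59 ± 0.24 (adjusted p = 0.148) with overlapping groups. The male calls of both genes were near the threshold. That of Tuba1a was lost without any one of sham replicates 3 and 4 and CLP replicates 2, 3, 4 and 5, when the change was −0.76, −0.79, −0.82, −0.85, −0.82 and −0.70 in that order. That of Tubb4b was lost without any one of sham replicates 2, 3 and 5 and CLP replicates 3, 4 and 5, when it was −0.49, −0.46, −0.46, −0.48, −0.47 and −0.45, and both were lost when only the 2 groups were fitted (adjusted p = 0.0128 and 0.0120).

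**Figure D1:**
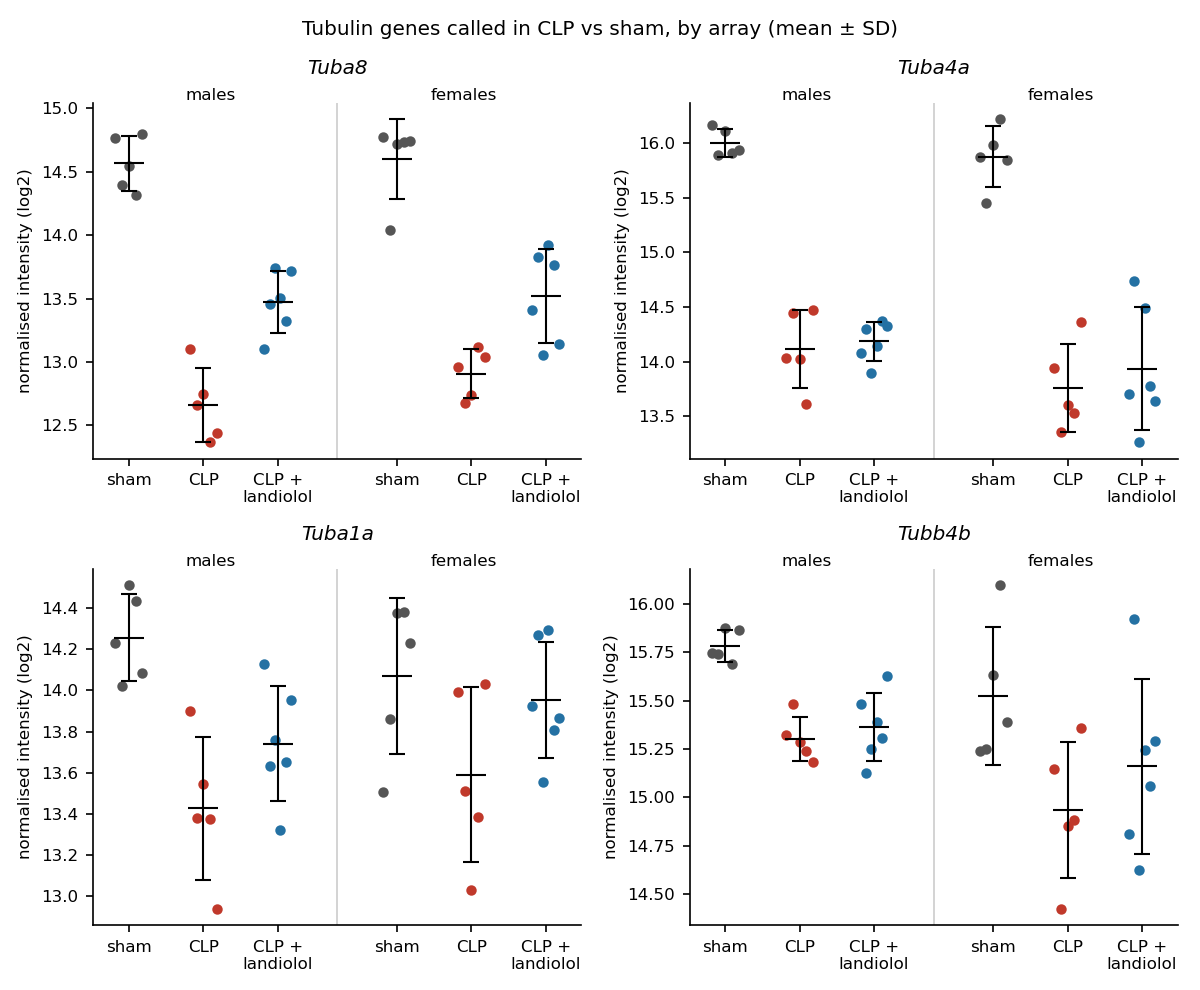
Normalised intensity (log2) of Tuba8, Tuba4a, Tuba1a and Tubb4b on each of the 32 arrays, by sex and group, with the mean and the SD of each group. The CLP arrays of Tuba8 and Tuba4a lie below all sham arrays in both sexes, and under landiolol both genes lie below all sham arrays, with a mean of Tuba8 above that of CLP and arrays that reach into the CLP range.

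The remaining α-tubulins, Tuba1b and Tuba1c, were read by several probes each, which differed in the size of the change for Tuba1b and in its direction for Tuba1c. Tuba1b, the main α-tubulin of most cells, changed by −0.07 ± 0.10 in males and −0.12 ± 0.17 in females by its brightest probe (adjusted p = 0.719 and 0.743), a probe with stop codons in all 3 frames. Its second probe read −0.48 ± 0.22 in males (adjusted p = 0.163) and −0.78 ± 0.22 in females (adjusted p = 0.0374), where every CLP array lay below every sham array. Neither value passed the FDR of 1%. Over the 16 arrays of a sex these probes correlated at 0.40 in males and 0.15 in females.

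Tuba1c was split more sharply. Its coding probe, printed above, changed by −0.23 ± 0.13 in males and −0.19 ± 0.18 in females (adjusted p = 0.273 and 0.575). The other Tuba1c probes lie 153 bases beyond it, overlap each other over 54 bases, hold the polyadenylation signal AATAAA and have stop codons in all 3 frames. They count as 1 measurement, with correlations of 0.998 and 0.999 between them, while the first of them correlated with the coding probe at −0.16 in males and 0.13 in females. That first end probe read 11.97, 12.04, 11.81, 11.72 and 12.07 in male sham rats and 12.19, 12.64, 12.74, 13.29 and 12.88 in male CLP rats. In females it read 10.78, 11.44, 11.95, 12.00 and 11.98 after sham surgery and 12.85, 12.27, 12.45, 12.64 and 13.33 after CLP. All CLP arrays were above all sham arrays in both sexes. The end probe rose by 0.83 ± 0.19 in males (adjusted p = 0.00651), and the second one by 0.86 ± 0.19 (adjusted p = 0.00621). In females the values were 1.08 ± 0.26 and 1.05 ± 0.26, short of the FDR of 1% (adjusted p = 0.0170 and 0.0173). The male call held in 7 of the 16 fits that left out 1 array, and it was lost without sham replicates 1 to 5 and CLP replicates 2 to 5 in turn, with changes of the first end probe between 0.69 and 0.86. The direction of Tuba1c after CLP thus depended on the probe that was read.

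**Figure D2:**
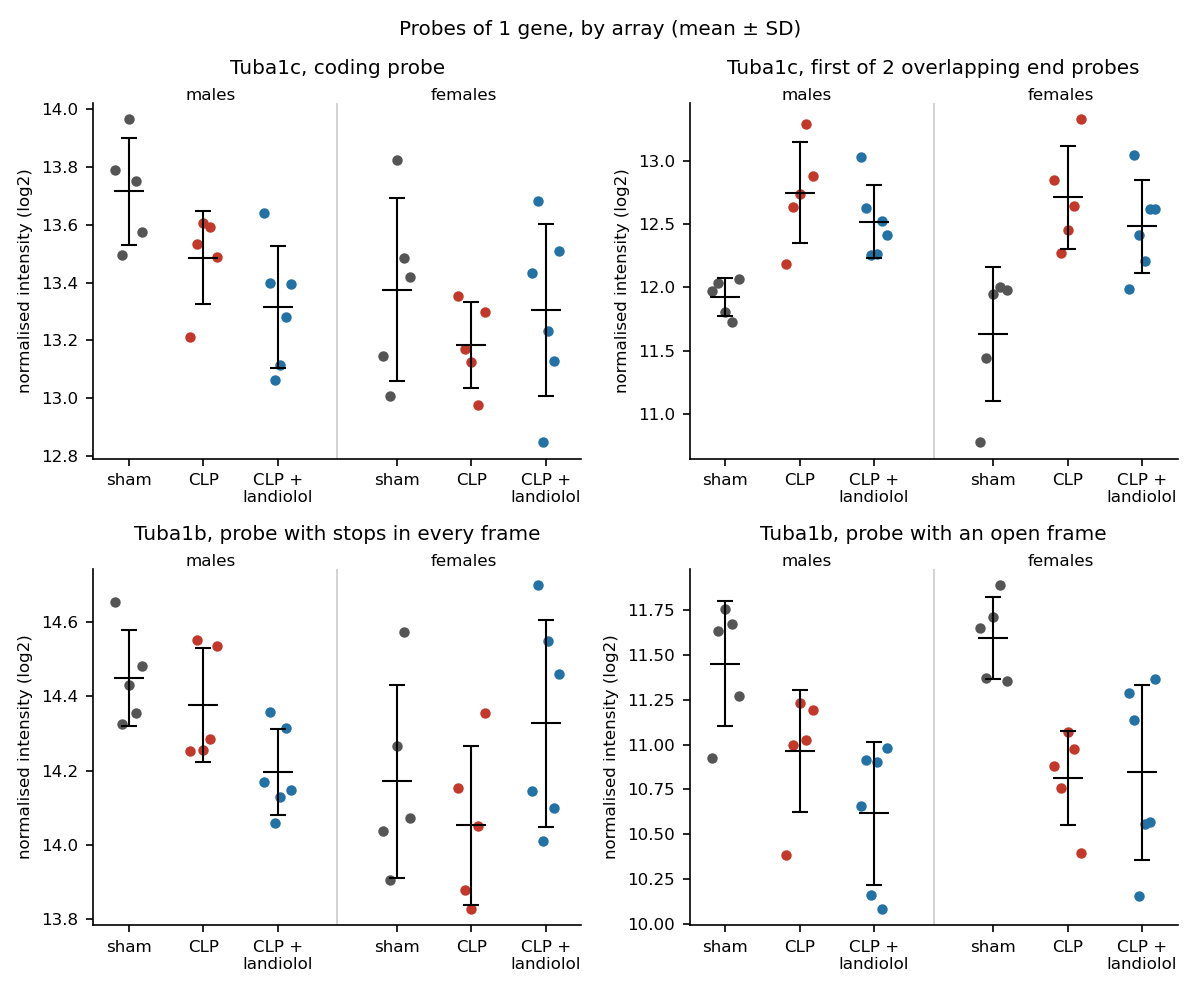
Normalised intensity (log2) on each array for the coding probe and the first end probe of Tuba1c and for both probes of Tuba1b, by sex and group, with the mean and the SD of each group. The end probe of Tuba1c is higher in every CLP array than in every sham array, while its coding probe and the brightest Tuba1b probe overlap between the groups.

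Among the β-tubulins only Tubb4b was called after CLP. Tubb3 read −0.64 ± 0.21 in males (adjusted p = 0.0484) and −0.57 ± 0.32 in females (adjusted p = 0.313), and it was a dim gene, well above background on 29 of the 32 arrays. Of the 7 markers tested for neurons and Schwann cells, 3 were called in males, all lower, beside 7.81% of all probes. In males 3 of the 7 read above 0, and the list median was −1.27. In females 1 was called lower and 1 higher, beside 3.63% of all probes. There 2 of the 7 read above 0, and the median was −0.69. The part of nerve tissue in the Tubb3 values was not tested. Tubb6, a β-tubulin of striated muscle and other tissues, read 0.09 ± 0.22 in males and 0.48 ± 0.27 in females (adjusted p = 0.848 and 0.315). Tubb2a and Tubb2b, a pair of neighbouring β-tubulin genes, lay between −0.25 and 0.21 in either sex and were not called. The brighter probe of Tubb2a read −0.25 ± 0.12 in males and 0.09 ± 0.22 in females, and its other probe −0.08 ± 0.21 and 0.10 ± 0.26.

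Under landiolol the call among the 10 genes was that of Tuba8 in males. At the FDR of 5%, 1 of 10 genes was called in males and 0 in females, where 1 gene, Tuba8 again, had an unadjusted limma p under 0.05. All probes were called at 1.56% in males and 0.0945% in females. The median change of the 10 genes was 0.10 in males and 0.20 in females, and that of all probes −0.0062 and 0.028.

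The Tuba8 levels of male CLP plus landiolol rats ran from 13.10 over a median of 13.48 to 13.74, and those of females from 13.06 over 13.59 to 13.92. In males all 6 arrays were above the mean of the CLP group, 12.66, but the lowest of them met the highest CLP array at 13.10, and in females the groups overlapped. The change from CLP to CLP plus landiolol was +0.81 ± 0.15 in males, a 1.75-fold rise with an adjusted p of 0.0166. In females it was +0.61 ± 0.19 (1.53-fold, adjusted p = 0.251). Within the slides it was 0.60 and 1.11 in males and 0.51 and 0.72 in females. The male count was 2 without CLP replicate 1 or CLP plus landiolol replicate 3, with Tubb2b added. The male call of Tuba8 was lost without CLP replicate 4 (+0.74, adjusted p = 0.0641) and in a fit of only the CLP and CLP plus landiolol arrays (adjusted p = 0.0522).

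Tuba4a, lower after CLP like Tuba8, gave no call under landiolol. Its levels under landiolol ran from 13.90 over 14.22 to 14.37 in males and from 13.26 over 13.74 to 14.74 in females, and the change from CLP was 0.07 ± 0.15 and 0.18 ± 0.25, with 95% intervals of −0.24 to 0.38 and −0.36 to 0.72 (adjusted p = 0.840 and 0.895). Tubb2b came next after Tuba8 in males. It read 7.71, 7.45, 7.03, 7.09 and 7.77 after CLP and from 7.47 over 8.25 to 8.57 under landiolol, and only the lowest landiolol array lay within the CLP range. The difference, 0.79 ± 0.21, missed the FDR (adjusted p = 0.0703), and it passed without CLP replicate 1 (0.87, adjusted p = 0.0401) or CLP plus landiolol replicate 3 (0.93, adjusted p = 0.0268). In females Tubb2b read 0.25 ± 0.26 (adjusted p = 0.836). The other 7 genes ranged from −0.26 to 0.31 in males and from −0.13 to 0.36 in females without a call.

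**Figure D3:**
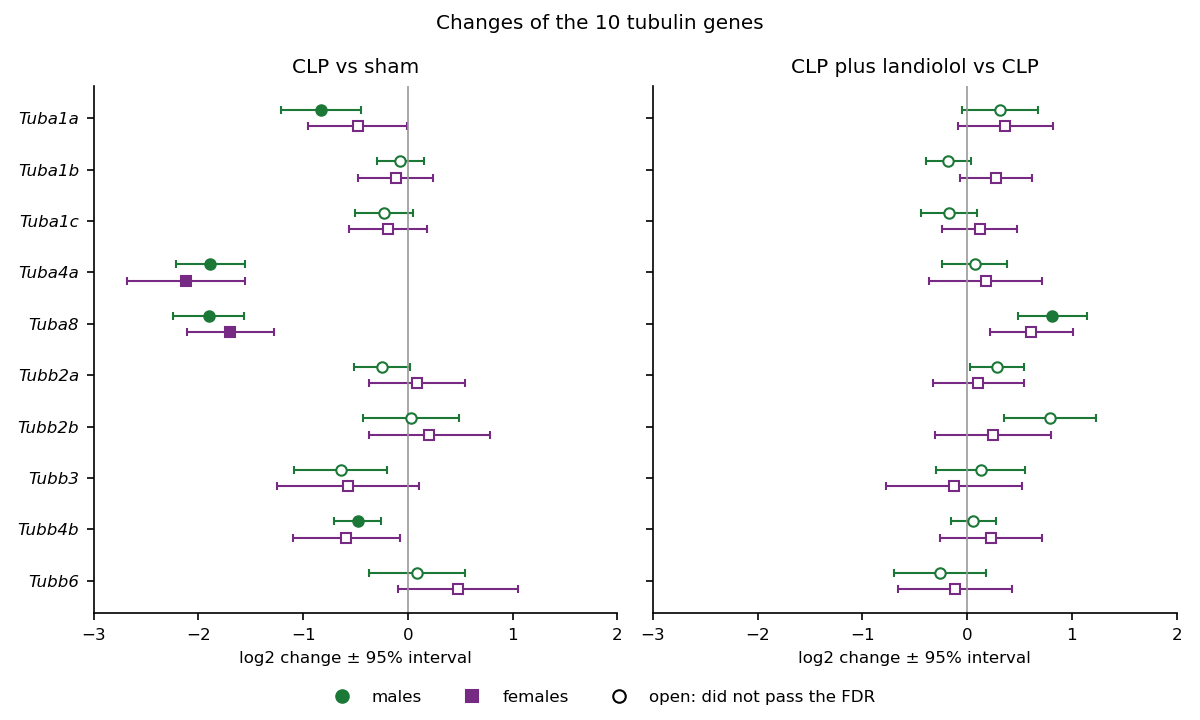
Log2 change of each of the 10 tubulin genes, by its brightest probe, with its 95% interval, for CLP vs sham and CLP plus landiolol vs CLP, males as circles and females as squares, filled where the gene passed the FDR. Tuba4a and Tuba8 stand apart on the left after CLP, and Tuba8 in males is filled in the landiolol panel.

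Set against sham, CLP plus landiolol rats still had low Tuba4a and Tuba8. The FDR of 1% was passed by 2 of the 10 genes in each sex, both lower, beside 4.15% of all probes in males and 5.25% in females. The medians of the 10 genes were −0.41 and −0.095, where those of all probes were −0.0023 and 0.00057. Tuba4a was lower by 3.52-fold in males (−1.82 ± 0.15, adjusted p = 2.21e-06) and by 3.84-fold in females (−1.94 ± 0.25, adjusted p = 0.000219). Tuba8 was lower by 2.13-fold in males (−1.09 ± 0.15, adjusted p = 0.000401) and by 2.11-fold in females (−1.08 ± 0.19, adjusted p = 0.00154). In both sexes and for both genes no landiolol array reached the lowest sham array. Tubb2b read +0.82 ± 0.21 in males (adjusted p = 0.0190) and Tubb4b −0.42 ± 0.10 (adjusted p = 0.0149), and neither was called. The comparison shares its landiolol arrays with the one against CLP and its sham arrays with CLP vs sham, so the values are set side by side and not counted as independent. In females the row of the slide went with these groups. With the row as a term Tuba4a read −2.25 (adjusted p = 0.0595) and Tuba8 −1.37 (adjusted p = 0.125), and row and group cannot be told apart.

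The balance between isotypes was described by the difference of log2 intensities of a pair of genes within each array. Its zero has no meaning, and only its shift between groups is read, without a test. Tuba1b minus Tuba4a averaged −1.55 ± 0.083 (SD, n = 5) in male sham rats, 0.26 ± 0.24 (SD, n = 5) after CLP and 0.0099 ± 0.12 (SD, n = 6) under landiolol. In females it averaged −1.70 ± 0.11 (SD, n = 5), 0.29 ± 0.23 (SD, n = 5) and 0.39 ± 0.35 (SD, n = 6). The ratio of Tuba1b to Tuba4a was thus shifted by 1.81 after CLP in males (3.51-fold) and by 2.00 in females, with no overlap between sham and CLP arrays, and its landiolol arrays overlapped those of CLP. Here and below Tuba1b was read by its brightest probe. Its second probe fell further after CLP (−0.48 ± 0.22 in males and −0.78 ± 0.22 in females), so the size of these shifts depends on the probe. Differences with the second probe were not computed.

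Tuba1b minus Tuba8 showed an intermediate place of the landiolol arrays in males. It averaged −0.12 ± 0.13 (SD, n = 5) in sham, 1.71 ± 0.38 (SD, n = 5) in CLP and 0.72 ± 0.31 (SD, n = 6) in CLP plus landiolol males, and none of these 3 groups overlapped another. In females it averaged −0.43 ± 0.28 (SD, n = 5), 1.14 ± 0.14 (SD, n = 5) and 0.81 ± 0.33 (SD, n = 6), and the landiolol arrays overlapped those of CLP. The shift from CLP to landiolol was −0.99 in males and −0.34 in females. Tuba1b itself read −0.18 in males and 0.27 in females in that comparison, which adds to the gap between these shifts. With Tuba1a, Tuba1c or Tuba4a in place of Tuba1b, the male landiolol arrays overlapped those of CLP. The male shifts were then −0.50, −0.98 and −0.74 in that order.

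Within the pair that fell after CLP, Tuba4a minus Tuba8 shifted by 0.018 in males and −0.42 in females between sham and CLP, with overlapping groups. Between sham and CLP plus landiolol it shifted by −0.72 in males and −0.86 in females, and here the groups were apart in both sexes. The ratio of Tuba8 to Tuba4a was thus 1.65-fold higher in males and 1.81-fold higher in females under landiolol than after sham surgery. Among β-tubulins, Tubb2b minus Tubb4b shifted by 1.24 in males and 0.81 in females between sham and CLP plus landiolol, without overlap in males. Tubb2b minus Tubb3 shifted by 1.33 and 1.15 and was apart from sham in both sexes, the only pair of the β class of which this held. Tubb3 is dim, well above background on 29 of the 32 arrays, so the size of this shift is uncertain. In females the row of the slide went with sham and CLP plus landiolol. With the row as a term, female Tubb3 read 0.16 against sham in place of −0.70. Row and group cannot be told apart in any female shift between sham and CLP plus landiolol. The pairs named were picked from all pairs computed within each class. The end probe of Tuba1c against Tuba8 gave the widest shift of those listed, 2.73 in males and 2.78 in females from sham to CLP.

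**Figure D4:**
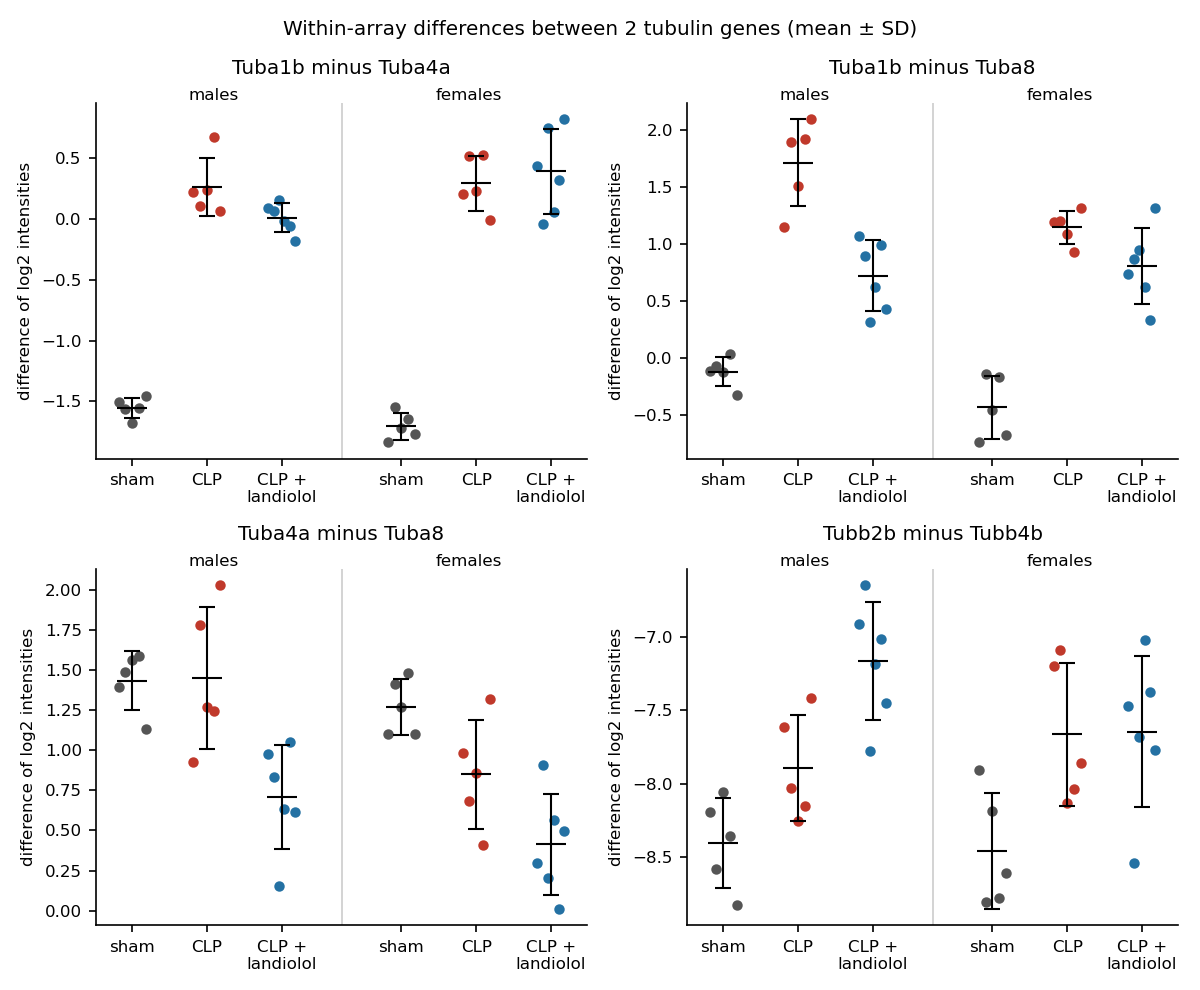
Difference of log2 intensities between 2 tubulin genes on each array, each by its brightest probe, for Tuba1b minus Tuba4a, Tuba1b minus Tuba8, Tuba4a minus Tuba8 and Tubb2b minus Tubb4b, by sex and group, with the mean and the SD of each group. Both Tuba1b differences rise from sham to CLP in each sex, and Tuba1b minus Tuba8 is lower again under landiolol in males.

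Whether males and females changed differently was asked of the interaction of sex and treatment, over all 32 arrays. At an FDR of 5% the tubulin genes gave 0 calls after CLP and 0 under landiolol, beside 0% of all probes in either case. At an unadjusted limma p under 0.05 there were 0 and 1 genes. The 1 gene was Tuba1b, whose male change minus female change under landiolol was −0.46 ± 0.18 (adjusted p = 0.968). For Tuba8 the male change minus the female change was −0.27 after CLP (95% interval −0.78 to 0.25) and 0.21 under landiolol (95% interval −0.28 to 0.70). The call of Tuba8 in males and not in females is therefore not a difference shown between the sexes, and for Tubb2b the interval of the landiolol difference was −0.15 to 1.23.

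The genes whose pattern over the arrays was most like that of Tuba8, by the lower of its male and female Pearson correlations among 18185 named probes, were Cox7a1 (0.935), a subunit of cytochrome c oxidase of heart and skeletal muscle, Paqr4 (0.925), a membrane receptor family member, and Rbm38 (0.919), an RNA-binding protein. Each rests on 16 arrays a sex that share the group differences. All 3 fell after CLP in both sexes, where Cox7a1 read −2.83 ± 0.28 in males and −2.74 ± 0.33 in females. Since the 3 genes were chosen for likeness to Tuba8 over these same arrays, their directions were largely fixed in advance and are no test. Under landiolol they read 0.94, 0.56 and 0.88 above CLP in males, in that order, and none was called there (adjusted p = 0.0921, 0.0578 and 0.0720). For the coding probe of Tuba1c the most alike were the β-tubulin Tubb5 (0.692), Hs2st1 (0.668), an enzyme of heparan sulfate synthesis, and the transcription factor Atf5 (0.648), and none of these 3 was called in any comparison. The first end probe of Tuba1c had other genes most like it, and at higher correlations, Coq8b (0.913), Chst11 (0.907) and Vmp1 (0.894).

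Genes that act on tubulin were taken from 5 lists, with other tubulins, modifying enzymes, folding factors, microtubule-associated proteins and motor subunits. The lists held 115 genes, of which 113 were on the array and 100 passed the filter in males and 97 in females. After CLP 11 of 100 were called in males, 5 higher and 6 lower, against the 7.81% of all probes, and 4 of 97 in females, all higher, against 3.63%. Under landiolol 4 of 100 were called in males, all lower, against 1.56%, and 0 of 97 in females, where 5 had an unadjusted limma p under 0.05. CLP plus landiolol vs sham gave 4 of 100 in males, all lower, and 4 of 97 in females, all higher, near the 4.15% and 5.25% of all probes. The median over the pooled lists was within 0.075 of 0 in each comparison. Single lists lay further off, with the other tubulins at −0.53 in females and −0.19 in males after CLP (0 of 6 and 1 of 7 above 0) and the folding factors at −0.17 in males under landiolol (5 of 22 above 0). The male count under landiolol ranged from 2 to 9 when 1 array was left out, with 2 without CLP replicate 3 or 4 or CLP plus landiolol replicate 1, 2 or 3, and 9 without CLP replicate 1. The male count after CLP ranged from 6 to 11, with 6 without CLP replicate 3 and 7 without CLP replicate 4 or 5.

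Among the modifying enzymes, 3 of 17 were called after CLP in males, 2 higher and 1 lower, beside 7.81% of all probes. In females it was 1 of 16, beside 3.63%. Hdac6, the main deacetylase of α-tubulin, rose by 1.32 in males (from 7.59 ± 0.34, SD, n = 5, to 8.91 ± 0.76, SD, n = 5) and by 1.66 in females (from 7.31 ± 0.15, SD, n = 5, to 8.97 ± 0.45, SD, n = 5). In males its groups overlapped and the call held in 9 of the 16 fits without 1 array, and in females it held in all 16. Vash1, a tubulin carboxypeptidase, rose by 0.83 ± 0.16 in males and fell by 1.04 under landiolol (adjusted p = 0.00484). In females it read 0.86 ± 0.26 (adjusted p = 0.0470) and −0.71 ± 0.25 (adjusted p = 0.346). A second Vash1 probe had the same signs and no call (0.81 and −0.52 in males). Vash2, its paralog, fell by 1.67 in males, but it was a dim gene, well above background on 3 of the 5 male CLP arrays, and its call held in 4 of the 16 fits. Over the 9 other settings it ranged from −1.84 to −0.62 with a call in 6, and its second probe read −0.54 (adjusted p = 0.144). The tyrosine ligase Ttl and the Vash partner Svbp, named here after their values were seen, were not called. Ttl read −0.38 in males and −0.39 in females after CLP, and Svbp 0.053 and 0.47.

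Of the microtubule-associated proteins, 6 of 33 were called after CLP in males, 3 higher and 3 lower, beside 7.81% of all probes. In females it was 3 of 32, all higher, beside 3.63%. Mapre2, which encodes the end-binding protein EB2, rose from 13.41 ± 0.15 (SD, n = 5) to 14.36 ± 0.22 (SD, n = 5) in males and from 13.23 ± 0.18 (SD, n = 5) to 14.27 ± 0.32 (SD, n = 5) in females. Under landiolol it was at 13.36 ± 0.28 (SD, n = 6) in males, a fall by 1.01 (adjusted p = 0.00448), and at 14.05 ± 0.35 (SD, n = 6) in females, a difference of −0.23 (adjusted p = 0.755). A second Mapre2 probe had the same signs and no call, with 1.003 after CLP in males (adjusted p = 0.0103), 1.18 in females (adjusted p = 0.0130) and −0.80 under landiolol in males (adjusted p = 0.107). Mtus2, a microtubule-binding scaffold, rose by 1.24 in males and 1.46 in females and fell under landiolol in males by 0.79 (adjusted p = 0.0264), and its 2 further probes gave the same calls. The male landiolol call of its brightest probe held in 11 of 16 fits. Map7, which recruits kinesin-1 to microtubules, rose by 0.75 in males and 0.97 in females, the female call in 2 of 16 fits. Its other probe read 1.03 and 0.93 and was not called in either sex (adjusted p = 0.0149 and 0.0395). Stmn4, of the tubulin-binding stathmin family, fell by 1.77 and Tppp3, a polymerisation-promoting protein, by 1.01, both in males. Stmn4 was a dim gene, well above background on 4 of the 5 male CLP arrays and 1 of the 5 female ones, so the size of its fall is uncertain. The Stmn4 value ranged from −1.92 to −0.77 over the 9 other settings with a call in each. The Tppp3 call held in 8 of the 9 and in 13 of the 16 fits without 1 array. In females they read −0.87 ± 0.53 and −0.11 ± 0.35 without a call. Mapt, which encodes tau and was outside the naming rule, fell by 0.90 ± 0.16 in males (adjusted p = 0.00158).

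Of the motor subunits, 1 of 21 was called in males in each of the comparisons. All probes were called there at 7.81% after CLP, 1.56% under landiolol and 4.15% against sham. After CLP it was Klc4, a kinesin light chain outside the naming rule, which fell by 0.59 ± 0.14 (adjusted p = 0.00970), a call held in 2 of 16 fits. Kif5b, the kinesin-1 heavy chain, was not called after CLP (−0.077 ± 0.14) and fell by 0.63 ± 0.14 under landiolol in males (adjusted p = 0.0313), a call kept by its second probe (−0.73, adjusted p = 0.0432) and in 9 of 16 fits. In females Kif5b read −0.70 ± 0.21 under landiolol (adjusted p = 0.228). None of the 22 folding and autoregulation genes was called in any comparison of either sex, while 1 to 5 of them had an unadjusted limma p under 0.05. Of the other tubulins 1 of 7 was called in males, Tubg1, the γ-tubulin that nucleates microtubules, which was singled out after its values were seen. It fell by 0.64 ± 0.10 (adjusted p = 0.000577) and read −0.54 ± 0.14 in females (adjusted p = 0.0244).

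**Figure D5:**
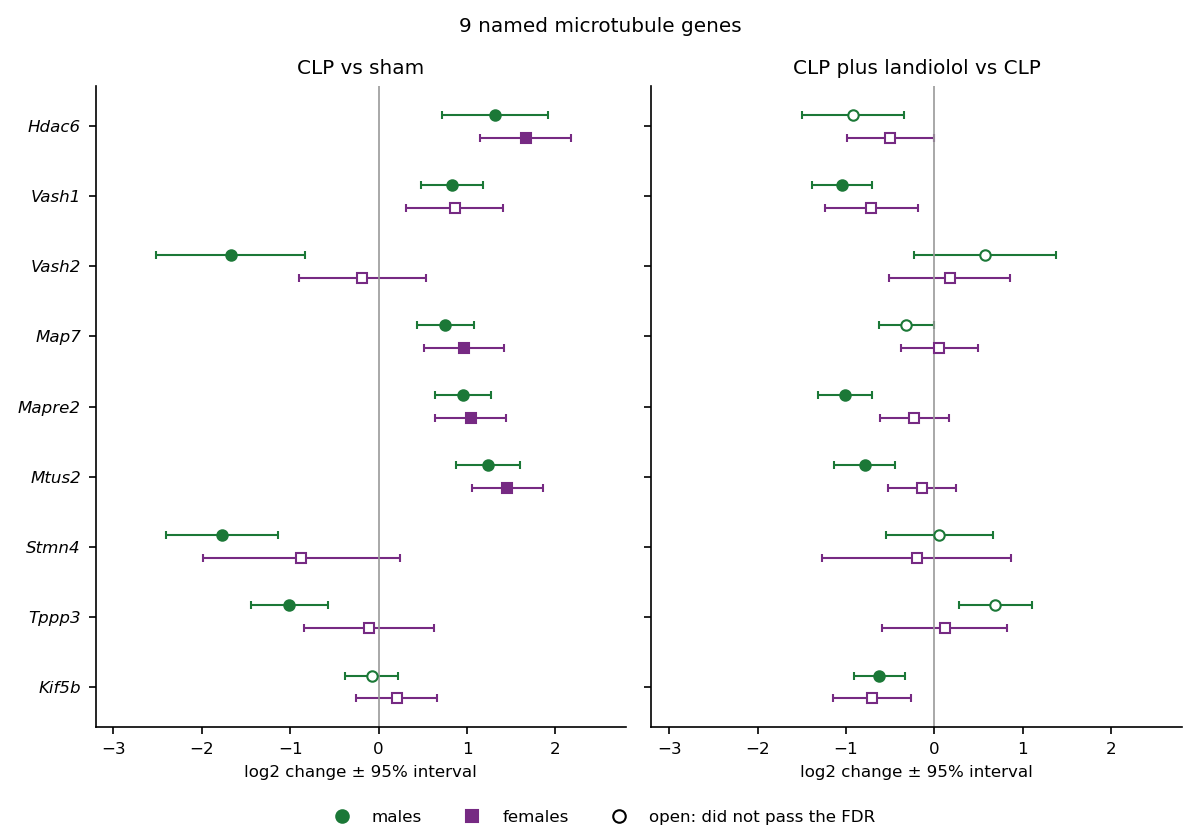
Log2 change with its 95% interval of 9 microtubule genes chosen by size among the 12 that were called, for CLP vs sham and CLP plus landiolol vs CLP, males as circles and females as squares, filled where the gene passed the FDR. Hdac6, Mapre2, Mtus2 and Map7 are filled on the higher side after CLP in both sexes, and Vash1, Mapre2, Mtus2 and Kif5b are filled on the lower side under landiolol in males.

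Markers of other cells changed beside the tubulin genes. The 2 neutrophil markers that passed the filter, of 5, had median changes of 3.34 in males and 3.05 in females after CLP, while Mmp8 was well above background on 0 of 32 arrays. Of the 5, 0 to 1 were well above background on male sham arrays and 0 to 2 on female ones, against 2 to 3 on CLP arrays. A marker can pass the filter through the CLP groups alone, so this rise is no test and its size rests on sham values near background. The 5 macrophage and monocyte markers had medians of 0.84 and 0.54, with 2 called higher in each sex, and their mean level per array ran from 8.21 to 8.85 in male sham and from 8.86 to 9.87 in male CLP rats. Of the 5 fibroblast markers 3 were called in males, 1 higher and 2 lower, and 0 in females. All probes were called at 7.81% in males and 3.63% in females after CLP. The 4 smooth muscle markers read −0.92 and −0.23 at the median without a call, the 5 endothelial ones −0.15 and −0.25 and the 4 of dividing cells −0.16 and −0.43. Of 5 lymphocyte markers 2 passed the filter in males and 1 in females, with no call. Mean levels of the 6 cardiomyocyte markers lay between 17.50 and 17.78 in male sham and between 17.45 and 17.67 in male CLP rats, and their median changes were −0.043 in males and 0.021 in females. Under landiolol the neutrophil median was 1.14 above CLP in males and 0.55 in females, and the nerve median 0.76 in males, where 1 marker was called higher and 1 lower. The part of any of these cell types in the tubulin changes was not tested.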

How the data were processed

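Left ventricles of 32 rats, 16 of each sex, were measured on 1-colour arrays. The authors deposited scanner output of Agilent Feature Extraction 10.5, in which the processed intensity of a spot is background-subtracted and detrended within its array, along with the mean intensity and local background. The value table deposited beside it holds quantile-normalised log2 intensities, filtered by the authors, and whether an offset preceded the log2 is unknown. It served as an alternative. The members, the lists and the tests were chosen with earlier results of these data known.

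Processed intensities were converted to log2, outlier spots (13371 in all) were left out, replicate spots averaged and the 16 arrays of a sex quantile-normalised. A probe was kept if 80% or more of the arrays in any group had it well above background, which left 25866 in males and 25395 in females. The 3 groups of a sex were fitted together with the lmFit and eBayes functions of limma 3.58.1 under R 4.3.3, and p-values were adjusted over all probes kept (Benjamini-Hochberg). The FDR was 1% for both comparisons with sham and 5% for the landiolol effect on CLP rats, where the study had used 1% for CLP and 5% for landiolol. The sex difference was an interaction on 26492 probes of the 32 arrays normalised together, FDR 5%. Counts at an unadjusted limma p under 0.05 have no background beside them, since the share of all probes at that level was not computed. The SAM test of the study was not run, since it regroups the samples. The script was tested on simulated data with known changes.

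The probe of a gene that was brightest on average stood for it, and another tubulin probe was named where its direction or call differed. From the microtubule lists, genes that passed the FDR in CLP vs sham or CLP plus landiolol vs CLP were named, up to 6 with the largest change per comparison, and the 3 genes most like Tuba8 and Tuba1c in pattern. Markers are given as lists. The sequence of 1 further probe is not reported here. Replicates are separate rats with numbers in order of deposit, and the number of arrays limits the precision. The settings varied were 75th percentile scaling, a normexp background (offset 50), no filter, both sexes normalised together, a fit of only the groups compared, slide or row of the slide as a term, the table of the authors, the other FDR level, the dimmest probe of a gene and leaving out each array in turn.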

Additional observations from a re-analysis of the deposited data

Results flagged for a closer look

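In 6 of the 90 groups of arrays tested (15 probes in 6 groups), the highest or lowest array stood apart from the rest by Dixon's criterion, which chance alone does in about 1 of 20 groups. The values are normalised log2 intensities. Tuba8 was at 14.04 in female sham replicate 2, where the nearest other sham array was at 14.72. The second probe of Tuba1b was at 10.38 in male CLP replicate 1, with the nearest array at 11.00. The brighter Tubb2a probe was at 12.59 in male CLP replicate 1 (nearest 12.21), and the dimmer one at 10.21 in male CLP replicate 3 (nearest 9.78), so the 2 probes of the gene set different arrays apart. Tubb2b was at 7.47 in male CLP plus landiolol replicate 3 (nearest 8.17), the array without which its difference from CLP passed the FDR. Tubb6 was at 9.13 in female sham replicate 1 (nearest 10.23). Without these arrays in turn, Tuba8 was still called in females after CLP. No difference between the sexes passed its test.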

How the results depend on the processing

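No paired analysis was possible because the replicate numbers only follow the order of deposit and join no samples. The male tubulin calls after CLP were 2 in a fit of only the 2 groups, and the call under landiolol in males was then 0, as it was at the other FDR level, which also gave 4 calls against sham in males. With the row as a term the female calls against sham were 0. At the other FDR level the microtubule lists gave 2 calls in males under landiolol, 8 in females after CLP and 11 in females against sham. The share of all probes called at the other FDR level was not computed, so none of the counts at that level can be set against it. Leaving out 1 array gave 2 to 4 tubulin calls after CLP, 0 to 2 under landiolol and 2 to 3 against sham in males, and 2 to 2, 0 to 0 and 2 to 2 in females. For the sex differences (chosen after seeing the data, as for the lists) it gave 0 to 0. For the lists it gave 6 to 11, 2 to 9 and 2 to 5 in males and 3 to 4, 0 to 1 and 1 to 6 in females. The list count against sham was 2 without male CLP plus landiolol replicates 1 to 3 or sham replicate 2 or 4, and in females 2 without CLP plus landiolol replicate 2 or 3 and 1 without sham replicate 1, 3 or 5. The female list call under landiolol came without CLP replicate 5. Scaling moved the median of all probes by less than 0.1.

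The values whose sign turned were not called as reported, and of the turned values that of Tuba1c in males after CLP was called (adjusted p = 0.00621). With the dimmest probe, Tuba1c read 0.86 in males and 1.05 in females after CLP, 0.61 and 0.84 against sham and −0.21 in females under landiolol. Tuba4a then read −0.36 and −0.084 under landiolol, Tuba1b −0.75 in females against sham, and Tubb2a −0.19 under landiolol and −0.27 against sham in males. With the row as a term in females, Tuba1b read −0.095, Tuba1c 0.0066 and Tubb3 0.16 against sham, and Tubb3 0.39, Tuba4a −0.0090 and its second probe 0.034 under landiolol. The table of the authors gave −0.0041 for Tubb2a against sham and 75th percentile scaling −0.037 for Tubb2b after CLP, both in males. Without 1 array, uncalled values crossed 0 in females for Tuba1b, second probe (−0.075 to 0.17), Tuba4a, second probe (−0.24 to 0.087), Tubb3 (−0.35 to 0.086), Tubb6 (−0.27 to 0.072) and both Tubb2a probes (−0.021 to 0.23 and −0.080 to 0.24) under landiolol, for Tuba1c against sham (−0.16 to 0.041) and for both Tubb2a probes after CLP (−0.033 to 0.22 and −0.021 to 0.30). In males they did for Tuba4a under landiolol (−0.055 to 0.16), Tubb2a (−0.024 to 0.096) and Tubb6 (−0.28 to 0.0048) against sham, and Tubb2b (−0.058 to 0.14), Tubb6 (−0.022 to 0.14) and the second Tubb2a probe (−0.17 to 0.0059) after CLP. The cause was not tested. Tubb3, not well above background on some arrays, has only an uncertain level there.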
